A study of Mus musculus with 48 samples.

Results

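Potassium channel genes were described across 48 RNA-seq libraries of mouse brain, 24 from hippocampus and 24 from frontal cortex. Members were the genes whose names follow the potassium channel pattern: Kcn, a letter from a to v and a digit, or Kcn followed by ip, mb, ab or e and a digit. The pattern found 82 of the 15590 genes listed in either tissue, with 77 listed in hippocampal and 80 in frontal cortex files, and 75 common to them. All 77 and all 80 listed members passed the filter on low counts, but the authors had filtered the lists before deposit by a rule that the sources used here do not give. Kcne2 and Kcnj5 were listed in hippocampus only, and Kcnk5, Kcnn4, Kcnh8, Kcnk15 and Kcnq1 in frontal cortex only. Of the 82, 2 are transcripts that encode no channel: Kcnq1ot1, which overlaps Kcnq1, and Kcnmb4os2, which overlaps Kcnmb4.

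The mice were male C57BL/6, an inbred laboratory strain, aged 63 to 91 postnatal days. They spent sessions on 3 days in a stress or a control environment and were injected into the abdominal cavity 60 minutes after each session. The injection held esomeprazole, a proton pump inhibitor that blocks acid secretion in the stomach, or vehicle. Dissection followed the final injection by 12 hours. Each tissue had 4 groups of 6 libraries: stressed with esomeprazole, stressed with vehicle, non-stressed with esomeprazole and non-stressed with vehicle. Sources differ on the dose: the series design gives 2 mg/kg and the treatment protocol 2 g/kg.

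Potassium channels let potassium leave or, for inward rectifiers, enter a cell, and so set its resting potential and the shape and timing of its action potentials. Voltage-gated alpha subunits (Kv channels and the EAG family, encoded by Kcnh genes) form the pore, and silent Kv subunits form channels only together with Kv2 subunits. Kv beta, KChIP, BK beta and Kcne proteins are accessory subunits that change where and how pore subunits work. In hippocampus and cortex these genes differ between neuron types, and some are known as genes of astrocytes (Kcnj10), choroid plexus epithelium (Kcnj13) or microglia (Kcnk13).

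The Kcnh genes are the subfamily whose tested members all had lower levels in hippocampus, so 3 of their promoters, those of the 3 largest differences, are shown. They are the 250 bases before the start of Kcnh4 (chr11:100759779-100760028, minus strand), Kcnh5 (chr12:75177333-75177582, minus strand) and Kcnh6 (chr11:106007898-106008147, plus strand) in the RefSeq promoter table on GRCm38.p6, with GGGCGG on either strand in capitals.
Kcnh4: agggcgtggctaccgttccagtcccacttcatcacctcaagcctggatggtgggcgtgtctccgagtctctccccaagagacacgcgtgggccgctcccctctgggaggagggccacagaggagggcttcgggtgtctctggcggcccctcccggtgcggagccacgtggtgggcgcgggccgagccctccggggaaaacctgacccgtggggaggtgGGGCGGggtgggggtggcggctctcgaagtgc
Kcnh5: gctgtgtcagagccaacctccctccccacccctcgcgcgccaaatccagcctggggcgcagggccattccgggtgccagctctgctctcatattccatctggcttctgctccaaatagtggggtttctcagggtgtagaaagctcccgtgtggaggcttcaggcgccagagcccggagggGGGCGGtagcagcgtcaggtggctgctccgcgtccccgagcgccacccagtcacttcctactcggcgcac
Kcnh6: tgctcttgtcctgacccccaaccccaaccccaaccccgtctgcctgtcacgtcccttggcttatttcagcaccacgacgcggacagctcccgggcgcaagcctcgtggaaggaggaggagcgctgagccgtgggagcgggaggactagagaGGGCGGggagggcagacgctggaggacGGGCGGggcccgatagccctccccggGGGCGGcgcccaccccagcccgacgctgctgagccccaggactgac
G and C made up 70.8%, 65.6% and 70.8% of these windows. The median G and C share was 69.2% over the 6 Kcnh promoters with a called tissue difference. It was 58.8% over member promoters and 52.4% over all promoters in the table. GGGCGG, or CCGCCC on the other strand, was present in 6 of the 6 Kcnh promoters of the table with a called tissue difference. It was present in 39 of 83 promoters of 59 members (47.0%) and in 10756 of all 32851 promoters (32.7%). The letters were chosen after the tissue contrast was seen, and a match describes the sequence only.

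Hippocampal libraries held 25.3 to 42.0 M gene reads and frontal cortex libraries 27.6 to 41.5 M. The no-feature share is the deposited no-feature value, for reads assigned to no counted feature, as a percentage of all values deposited for a library. It ranged from 5.03% to 20.6% in hippocampus and from 4.50% to 19.9% in frontal cortex, and was under 12% in 5 and 7 libraries, with 1 or 2 of them in every group. Tissue labels were checked against marker genes, in CPM (read counts scaled to a common library size). Prox1, a dentate granule cell gene, had a median of 38.5 CPM in hippocampus (range 5.74 to 85.4) and 4.16 in frontal cortex (1.65 to 7.49). Rspo1, of the cortical excitatory neuron list, had medians of 1.82 CPM in hippocampus (0.80 to 18.5) and 4.48 in frontal cortex (1.11 to 10.9). The ranges of both genes overlapped between tissues. Marker scores are means of centred log2 levels over a list. The striatal score was high (2.36 to 3.68) in 5 hippocampal libraries and at most -0.11 in the other 19. All 5 came from stressed mice: 4 with esomeprazole and 1 with vehicle. The dentate granule score was -3.94 to 0.53 in stressed esomeprazole and -0.83 to 0.76 in stressed vehicle hippocampus. It was -0.14 to 0.87 in non-stressed esomeprazole and -0.05 to 1.01 in non-stressed vehicle hippocampus. The CA1 and CA3 pyramidal neuron score was -2.09 to 0.37 and -0.66 to 0.37 in the stressed groups, in the same order. In the non-stressed groups it was 0.20 to 0.58 and 0.22 to 0.36. The olfactory bulb score was high (0.48 to 2.21) in 17 frontal cortex libraries and low (-3.99 to -2.28) in 7, of which 4 were non-stressed with vehicle and 1 belonged to each other group.

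Among the members with the highest levels per kilobase of merged exon in hippocampus were Kcnab2, a Kv beta subunit, at 184 ± 114 CPM per kilobase (SD, n = 24), the KChIP gene Kcnip2 at 78.8 ± 27.5 and the astrocytic inward rectifier Kcnj10 at 51.0 ± 8.69. In frontal cortex they were the inward rectifier Kcnj4 at 117 ± 66.0, Kcnab2 at 106 ± 65.0, Kcnj10 at 62.4 ± 12.6 and the silent subunit Kcnf1 at 61.3 ± 15.6 CPM per kilobase. The SDs describe the spread between libraries, and the order of these members was not tested. The median member had 4.80 CPM per kilobase in hippocampus and 4.68 in frontal cortex. The summed level of all members was 4821 to 8497 CPM in hippocampal and 5580 to 7984 CPM in frontal cortex libraries.

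Between the tissues, averaged over the 4 conditions, 14 members were higher and 25 lower in hippocampus, out of 75 tested. Over all 14844 genes, 12.0% were higher, 13.8% lower and 25.7% either, against 18.7%, 33.3% and 52.0% of the members. Calls are from limma on the log2 scale with a pseudocount of 1, at Benjamini-Hochberg adjusted p under 0.05 over all tested genes. The median log2 fold change of the members was -0.09, against 0.02 over all genes. All 39 members called had the same sign in each of the 4 conditions. Within single conditions, 5 members were higher and 8 lower in stressed esomeprazole mice (2.59% and 2.66% of all genes), 6 and 17 in stressed vehicle mice (3.67% and 3.85%), 8 and 18 in non-stressed esomeprazole mice (4.68% and 5.13%) and 5 and 16 in non-stressed vehicle mice (4.57% and 4.59%). In bulk tissue, fewer cells of a type and less RNA per cell cannot be told apart.

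**Figure D1:**
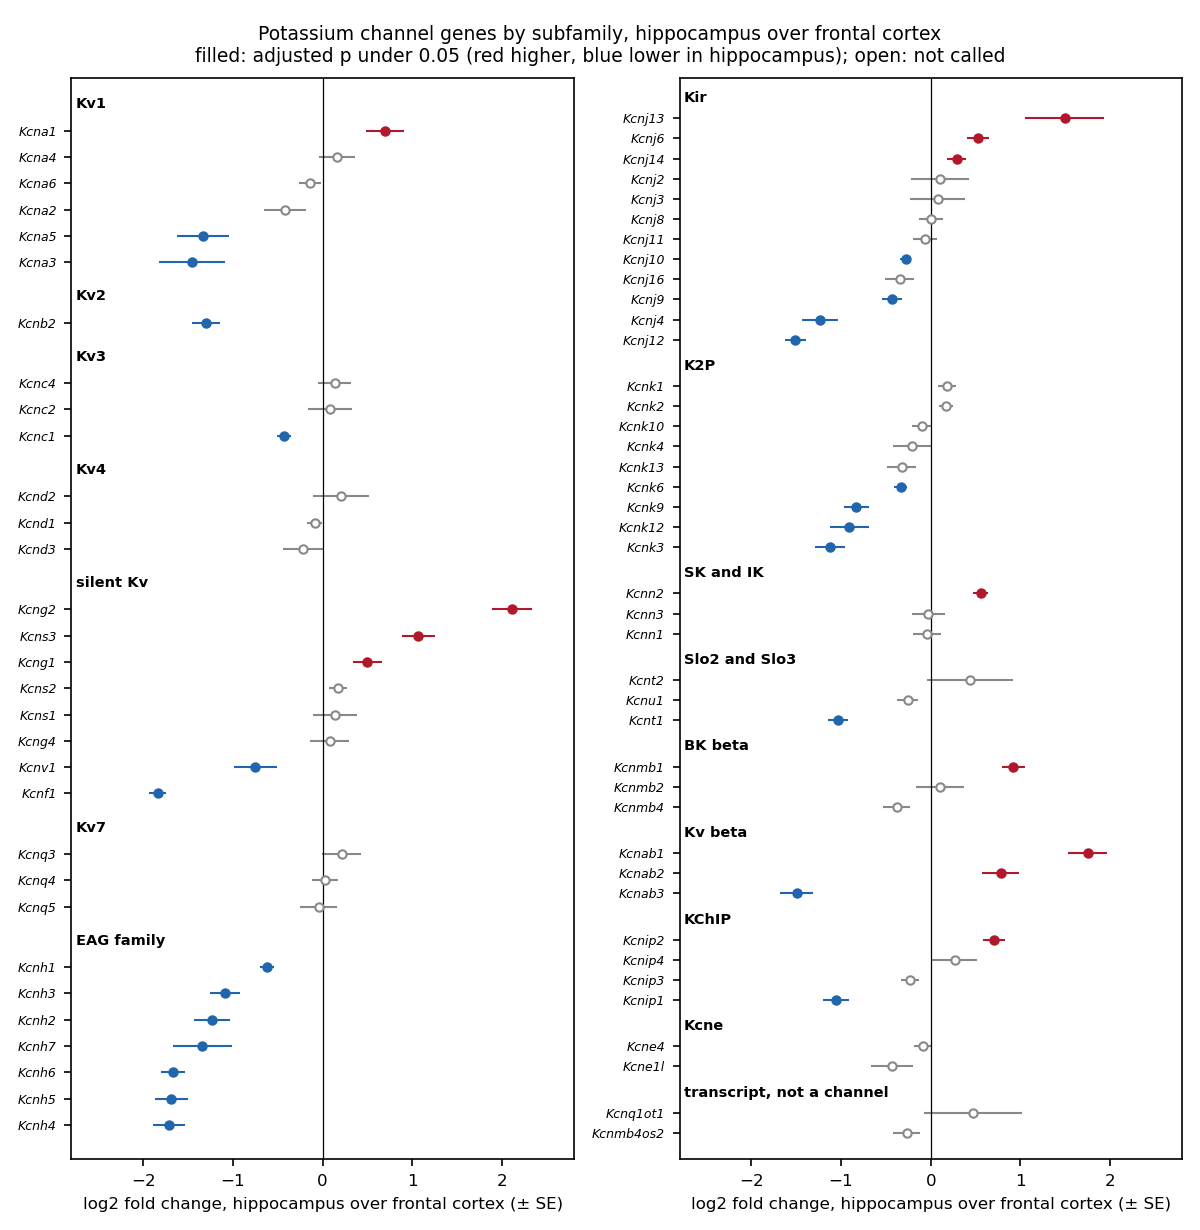
Log2 fold change of 72 of the 75 members listed in both tissues, hippocampus over frontal cortex (horizontal axis), with bars of 1 standard error from limma, grouped by subfamily. Filled points passed adjusted p under 0.05 (12 red, higher in hippocampus; 24 blue, lower), open points did not, and all 7 EAG family members are blue.

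The EAG family comprises the Eag, Erg and Elk channels, voltage-gated channels that act near the resting potential. All 7 of its tested members were lower in hippocampus, with a median log2 fold change of -1.34. Kcnh4, an Elk channel, had 3.43 to 43.9 CPM (median 6.79) in hippocampal and 15.2 to 44.1 CPM (median 27.7) in frontal cortex libraries. Its log2 fold change was -1.71 ± 0.18 (SE; limma, adjusted p = 1.99e-10). Below the highest hippocampal library lay 23 frontal cortex ones, and 4 hippocampal libraries lay above the lowest frontal cortex one. These 4 were among the 5 of high striatal score, which had 14.4 to 43.9 CPM (not above 11.8 in the others). Kcnh5 (Eag) had 1.12 to 13.9 CPM in hippocampus (median 2.72) and 4.31 to 18.0 in frontal cortex (median 9.81), a log2 fold change of -1.69 ± 0.18. Kcnh6 (Erg) had 0.83 to 4.59 CPM in hippocampus (median 1.52) and 3.24 to 8.87 in frontal cortex (median 5.82), a log2 fold change of -1.67 ± 0.13. For each of Kcnh5 and Kcnh6, 3 hippocampal libraries lay above the lowest frontal cortex one, and 21 frontal cortex libraries for Kcnh5 and 8 for Kcnh6 lay below the highest hippocampal one. Kcnh7 (-1.34), Kcnh2 (-1.24), Kcnh3 (-1.09) and Kcnh1 (-0.62) followed on the log2 scale. Kcnh3, an Elk channel, had the highest level of the subfamily, with 71.4 to 382 CPM in hippocampus (median 102) and 168 to 541 in frontal cortex (median 215).

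Kv2 genes encode delayed rectifiers of neuron cell bodies. Kcnb2 was lower in hippocampus, with a log2 fold change of -1.30. The silent subunits, which assemble with Kv2, divided: 3 of 8 were higher in hippocampus and 2 lower. Kcnf1, at chr12:17172100-17176888 on the minus strand (mm10, GENCODE vM21), had 52.3 to 133 CPM in hippocampus (median 80.1) and 176 to 465 in frontal cortex (median 294). Every hippocampal library lay below every frontal cortex library, and the log2 fold change was -1.84 ± 0.09 (limma, adjusted p = 3.53e-19). Kcng2 went the other way, with 3.85 to 88.0 CPM in hippocampus (median 19.4) and 2.34 to 17.0 in frontal cortex (median 4.03), a log2 fold change of 2.11 ± 0.23. Kcns3 (1.07) and Kcng1 (0.50) were also higher and Kcnv1 (-0.75) lower on the log2 scale. Kcnf1 and Kcnj12 were the only members whose 24 hippocampal and 24 frontal cortex libraries did not overlap, 2 of 75 (2.67%), against 0.202% of all tested genes.

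Among Kv1 genes, which encode axonal and dendritic low-threshold channels, Kcna1 was higher in hippocampus, with 63.5 to 302 CPM (median 246) against 37.2 to 232 in frontal cortex (median 148). Its log2 fold change was 0.70 ± 0.21 (limma, adjusted p = 0.0103), with wide overlap. Kcna3 (-1.46) and Kcna5 (-1.34) were lower on the log2 scale, at medians of 0.73 and 2.62 CPM in hippocampus and 3.04 and 8.73 in frontal cortex. Of the Kv3 genes, known for fast-spiking neurons, Kcnc1 was lower (-0.43 ± 0.07), while Kcnc2 (0.08) and Kcnc4 (0.13) did not pass. None of the 3 Kv4 genes, the A-type channels, passed, with log2 fold changes of 0.21 for Kcnd2, -0.09 for Kcnd1 and -0.22 for Kcnd3. Kcnq3, a Kv7 gene of the M-current, had 0.21 and did not pass.

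Inward rectifiers also divided, with 3 of 12 higher in hippocampus and 4 lower. Kcnj12, a strong inward rectifier at chr11:61022564-61071131 on the plus strand (mm10), had 4.83 to 16.8 CPM in hippocampus (median 8.50) and 18.6 to 39.0 in frontal cortex (median 24.2). The groups did not overlap, and the log2 fold change was -1.51 ± 0.12 (limma, adjusted p = 6.61e-14). Kcnj4, of the same class, had 53.7 to 294 CPM in hippocampus (median 79.4) and 130 to 600 in frontal cortex (median 193), a log2 fold change of -1.23. The G protein-gated subunits differed in sign: Kcnj6 was higher (0.53 ± 0.12), Kcnj9 lower (-0.43 ± 0.11), and Kcnj3 (0.08) did not pass. Kcnj10 was lower by a small amount (-0.28 ± 0.07). Kcnj13, the rectifier of choroid plexus epithelium, had 0.36 to 28.6 CPM in hippocampus (median 4.25) and 0.34 to 2.39 in frontal cortex (median 1.38), a log2 fold change of 1.49 ± 0.44. The hippocampal library highest in Kcnj13 had 28.6 CPM of it, 28.0 of Kcne2, known as a choroid plexus gene, and 4966 of the choroid plexus marker Ttr, while the lowest had 0.36 of Kcnj13, 0.41 of Kcne2 and 26.9 of Ttr. The part of choroid plexus RNA in the Kcnj13 difference was not tested.

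**Figure D2:**
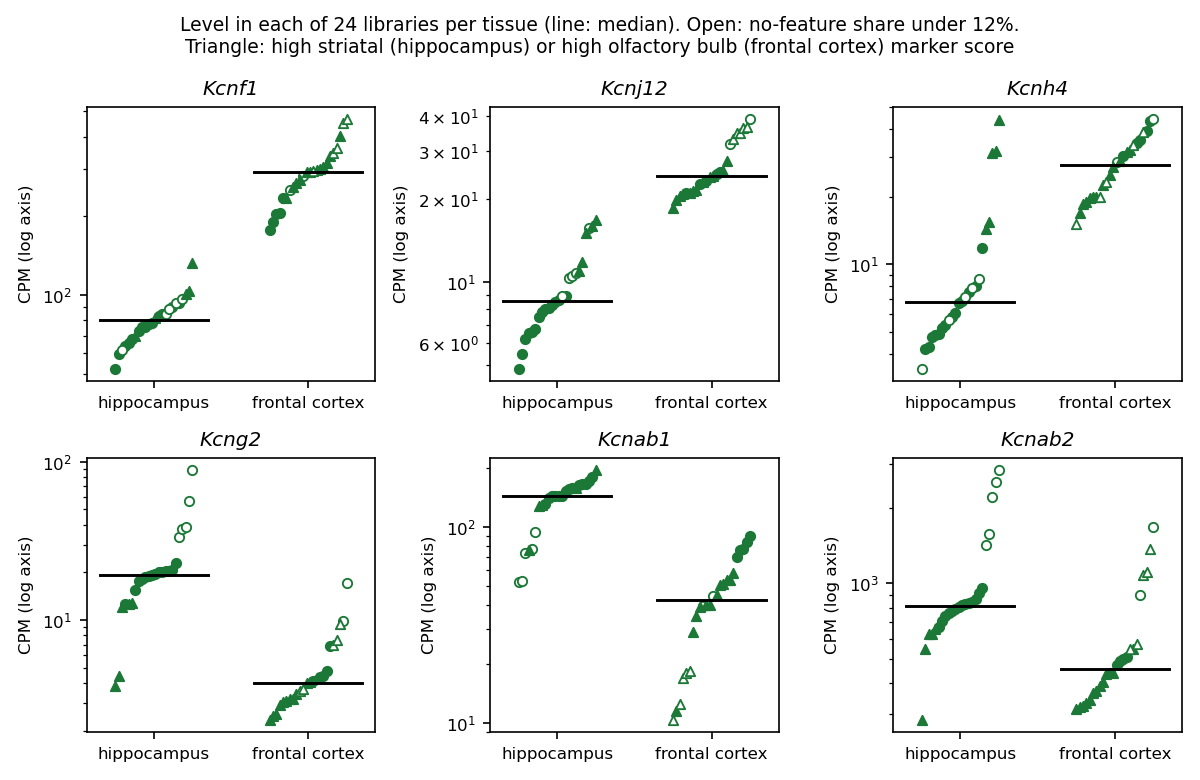
CPM on a log axis of 6 members in each of 24 hippocampal and 24 frontal cortex libraries (points; line at the median), with open symbols for no-feature shares under 12% and triangles for high striatal score in hippocampus or high olfactory bulb score in frontal cortex. Kcnf1 and Kcnj12 do not overlap between tissues, and 4 of the 5 hippocampal triangles of Kcnh4 lie within the frontal cortex range.

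No K2P gene, of the background leak channels, was higher in hippocampus, and 4 of 9 were lower. Kcnk3 had 8.26 to 32.4 CPM in hippocampus (median 12.3) and 21.0 to 67.3 in frontal cortex (median 25.5), a log2 fold change of -1.12 ± 0.17 (limma, adjusted p = 6.59e-07). Kcnk12 (-0.91), Kcnk9 (-0.83) and Kcnk6 (-0.34) were lower on the log2 scale, and Kcnk1, the K2P gene of highest level, had 0.18 and did not pass. Among calcium- and sodium-activated channels, Kcnn2, which carries an afterhyperpolarisation current, had 13.0 to 39.0 CPM in hippocampus (median 30.2) and 10.8 to 25.6 in frontal cortex (median 19.1), a log2 fold change of 0.55 ± 0.09 (adjusted p = 1.23e-06). The sodium-activated Kcnt1 had 43.3 to 261 CPM in hippocampus (median 90.6) and 133 to 248 in frontal cortex (median 213), a log2 fold change of -1.04 ± 0.11. Kcnn2 and Kcnt1 overlapped between tissues.

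Accessory subunits held large differences in both directions. All 3 Kv beta genes passed. Kcnab1 had 52.6 to 195 CPM in hippocampus (median 144) and 10.3 to 89.8 in frontal cortex (median 42.2), a log2 fold change of 1.75 ± 0.21 (limma, adjusted p = 9.31e-09). Kcnab2 was higher too (0.78 ± 0.21), while Kcnab3 had 27.1 to 150 CPM in hippocampus (median 37.3) and 37.7 to 250 in frontal cortex (median 128), a log2 fold change of -1.50 ± 0.18. Of the KChIP genes, whose proteins bind Kv4 channels, Kcnip2 was higher (0.70 ± 0.13) and Kcnip1 lower (-1.06 ± 0.14). Kcnmb1, a BK beta gene, was higher (0.92 ± 0.13), at medians of 1.52 CPM in hippocampus and 0.83 in frontal cortex. Kcnmb1 lies within the span of Kcnip1 on the opposite strand. The kit was stranded, but the strand setting of the counting is not given in the sources used here, so reads of this pair, of Kcnq1 and Kcnq1ot1 and of Kcnmb4 and Kcnmb4os2 may have been split. Neither Kcne gene nor either overlapping transcript passed.

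Since frontal cortex libraries differed in olfactory bulb score and hippocampal ones in striatal score, the tissue contrast was also fitted on libraries of low score only, 19 of hippocampus and 7 of frontal cortex. It called 28 members, 6 higher and 22 lower (12.9% of all genes). Of the 39 members called over all libraries, 24 were called again, 6 higher and 18 lower, and 38 had the same sign. The exception in sign was Kcnj10, at 0.01 ± 0.11 on the log2 scale. Of the EAG genes 6 of 7 were called again, with Kcnh4 at -2.62 ± 0.20 and Kcnh2 at -0.43 (limma, adjusted p = 0.54). Kcnf1 (-1.42), Kcnj12 (-1.65) and Kcng2 (1.99) were called again on the log2 scale. Kcnab1 stood at 0.93 and was called, and Kcnip1 at -0.41 was also called. Members not called again included Kcnab3 at -0.41, Kcns3 at 0.25, Kcna5 at -0.48, Kcna1 at 0.33, Kcnc1 at -0.11, Kcnk12 at -0.47, Kcnj4 at -0.86, Kcnmb1 at 0.68, Kcng1 at 0.35, Kcnj14 at 0.27 and Kcnj13 at 1.58 on the log2 scale. Kcnab2 stood at 0.77, close to its 0.78 over all libraries, and was not called (limma, adjusted p = 0.23). Kcnmb4, Kcnmb4os2, Kcnk4 and Kcna6 were called as lower only in this fit.

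Most members moved with the no-feature share, at a lower percentage than all genes tested. The slope is the change in log2 level per 10 percentage points of the share within groups. In hippocampus 24 of 77 members had a slope above 0 and 30 below 0 at adjusted p under 0.05 (70.1%), against 42.7% and 41.2% of all genes (83.9%). In frontal cortex the counts were 28 and 31 of 80 (73.8%), against 42.1% and 41.6% of all genes (83.7%). Of 75 members in both tissues 50 were called in both, 22 upward and 28 downward, and all 50 had the same sign in each tissue. As a description, Pearson's r between the tissues' slopes across the 75 members was 0.96, and members are not independent of one another.

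The steepest upward slope belonged to Kcnq1ot1, a long nuclear transcript from the Kcnq1 locus: 3.49 ± 0.18 in hippocampus and 3.82 ± 0.14 in frontal cortex (SE; limma, adjusted p = 2.3e-13 and 1.84e-15). In hippocampus it had 0.57 to 1.93 CPM in the 5 libraries under 12% and 4.91 to 25.4 CPM in the other 19, and in frontal cortex 0.43 to 2.09 CPM in the 7 libraries under 12% and 3.27 to 17.5 in the other 17. The ranges did not overlap in either tissue. The sodium-activated channel gene Kcnt2 had slopes of 2.03 and 3.23, the inward rectifier Kcnj2 1.82 and 2.14, the A-type channel Kcnd2 1.66 and 2.09, and the G protein-gated Kcnj3 1.64 and 2.16, hippocampus first. Kcna3 had 2.47 in frontal cortex and Kcnmb2 1.65 in hippocampus. Downward slopes were smaller. Kcnk12 had -1.39 ± 0.14 and -1.29 ± 0.11, Kcng4 -1.34 and -1.27, Kcnab2 -1.30 and -1.28, and Kcnj4 -1.24 and -1.26. Kcnab2 had 1419 to 2823 CPM in the 5 hippocampal libraries under 12% and 285 to 958 in the other 19. Kcns1 (-1.35) and Kcng2 (-1.29) in hippocampus and Kcne1l (-1.11) in frontal cortex completed the 5 steepest in each direction. Kcnj10 had slopes of 0.02 and -0.09, which did not pass.

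**Figure D3:**
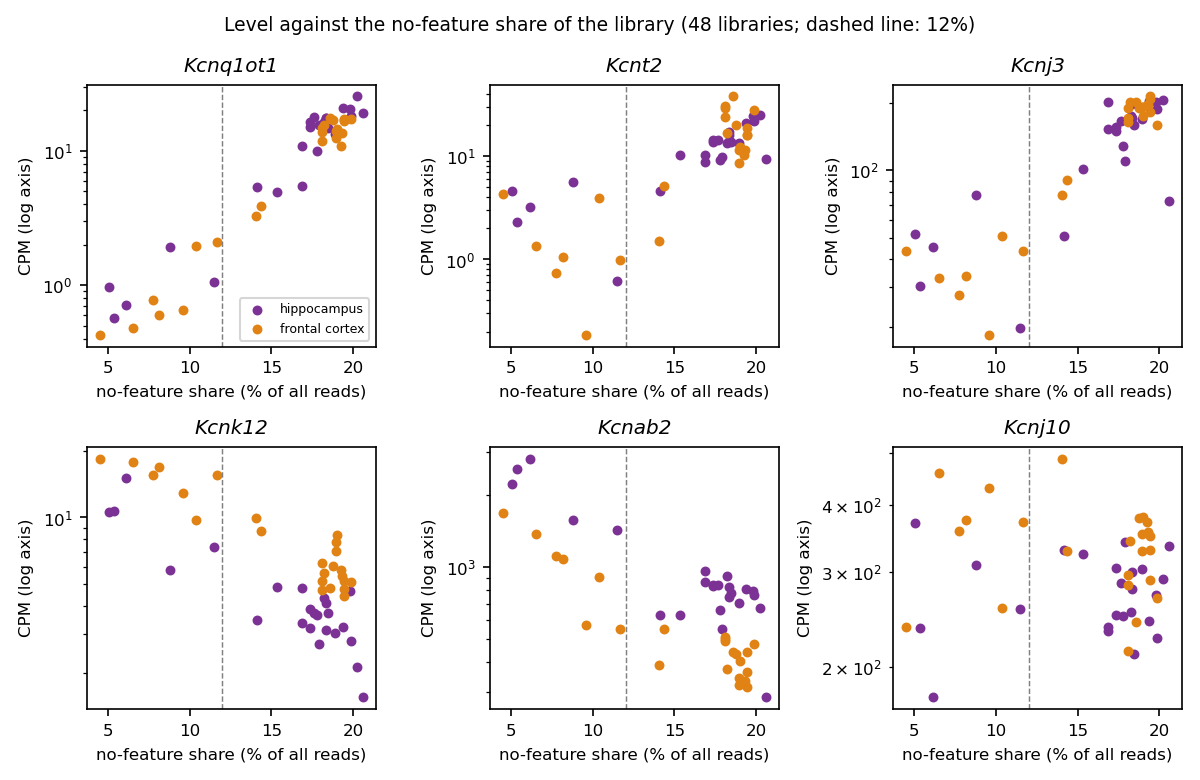
CPM on a log axis of 6 members in 48 libraries against the no-feature share in percent of all reads (purple, hippocampus; orange, frontal cortex; dashed line at 12%). In both tissues the medians of Kcnq1ot1, Kcnt2 and Kcnj3 are lower in the libraries under 12% than in the others, and those of Kcnk12 and Kcnab2 higher. Of these members only Kcnq1ot1 has ranges that do not overlap in either tissue. Kcnj10 has no called slope.

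By subfamily, 2 of 3 Kv4 genes rose with the share in both tissues, as did 2 of 3 Slo2 and Slo3 genes, the sodium- and pH-activated channels. Of the 6 Kv1 genes 3 rose in hippocampus and 4 in frontal cortex. Over all genes 42.7% rose in hippocampus and 42.1% in frontal cortex, and sets of 3 genes are too small to compare with these percentages. Of the K2P genes 5 fell and 2 rose in each tissue, out of 9 in hippocampus and 11 in frontal cortex, against 41.2% and 41.6% of all genes that fell. Across members, Pearson's r between the slope and log2 exon length was 0.44 in hippocampus and 0.50 in frontal cortex, described without a test. In libraries from 12% up only, 22 members were called in hippocampus, 10 up and 12 down (46.0% of all genes), and 30 in frontal cortex, 20 up and 10 down (44.0%). Of the members called over all libraries, 49 of 54 and 49 of 59 had the same sign there, and 21 and 28 were called again, 0 with the opposite sign. Kcng2 in hippocampus stood at -0.15 and Kcnab2 in frontal cortex at -0.31 in that range, and neither was called. Members whose libraries under 12% did not overlap the others were 18 of 77 in hippocampus (23.4%, against 41.6% of all genes) and 13 of 80 in frontal cortex (16.3%, against 37.4%).

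Members also separated by neighbouring-tissue score. In hippocampus 6 of 77 members (7.79%) did not overlap between the 5 libraries of high striatal score and the other 19, against 1.99% of all genes. Kcnh4 had 14.4 to 43.9 CPM in the 5 and 3.43 to 11.8 in the others. Kcnt1 had 159 to 261 CPM in the 5 and 43.3 to 131 in the others. Kcnj6 had 13.9 to 40.5 CPM in the 5 and 41.2 to 71.8 in the others. Kcnh4 and Kcnt1 were high, and Kcnj6 and Kcnab2 low, in the libraries of high striatal score. In frontal cortex 9 of 80 members (11.3%) did not overlap between the 17 libraries of high olfactory bulb score and the other 7, against 4.55% of all genes. Kcnk15, a K2P gene, had 0.54 to 8.08 CPM in the 17 and 0 to 0.19 in the 7. Kcna5, Kcnab3, Kcnh8, Kcnip1, Kcnk13 and Kcnn4 were likewise high in the 17, while Kcnj9 (79.4 to 156 against 183 to 254 CPM) and Kcns3 (1.41 to 6.33 against 6.37 to 8.95 CPM) were low there.

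No member passed the test for stress in hippocampus, averaged over the drug arms (limma, adjusted p under 0.05; 0.0133% of all genes were called). At unadjusted p under 0.05, 14 of 77 members stood out, against 5.90% of all genes. edgeR called 0 members and DESeq2 called 3: Kcnh4, Kcnj10 and Kcnn2. The smallest limma p belonged to Kcnn2, which had 13.0 to 30.2 CPM (median 20.5) in stressed esomeprazole, 17.1 to 37.9 (27.4) in stressed vehicle, 29.5 to 38.3 (32.7) in non-stressed esomeprazole and 26.7 to 39.0 CPM (32.1) in non-stressed vehicle mice. The lowest libraries were stressed ones, and the groups overlapped. The log2 difference was -0.53 ± 0.13 (limma, adjusted p = 0.399), and -0.50 with DESeq2 (adjusted p = 0.0255). Without the 5 libraries of high striatal score it was -0.28, and with the striatal score as a covariate -0.17. Dropping the 5 removes most of the stressed esomeprazole group, so hippocampal values without them rest on few libraries of that group.

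Kcnj10 had 248 to 341 CPM (median 306) in stressed esomeprazole, 279 to 370 (302) in stressed vehicle, 176 to 272 (230) in non-stressed esomeprazole and 236 to 309 CPM (251) in non-stressed vehicle mice. Stressed libraries were mostly the higher ones, with overlap in both arms. The log2 difference was 0.32 ± 0.09 (limma, adjusted p = 0.502; DESeq2, 0.30 and adjusted p = 0.0494). It was 0.22 without the 5 libraries and 0.25 with the striatal score as a covariate. The astrocyte marker score was -0.53 to 0.01 in stressed esomeprazole, -0.16 to 0.22 in stressed vehicle, -0.09 to 0.20 in non-stressed esomeprazole and -0.04 to 0.20 in non-stressed vehicle mice. Its part in the Kcnj10 difference was not tested.

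Kcnh4 had 4.29 to 43.9 CPM (median 22.8) in stressed esomeprazole, 4.87 to 15.4 (6.50) in stressed vehicle, 4.19 to 7.98 (7.18) in non-stressed esomeprazole and 3.43 to 6.73 CPM (5.07) in non-stressed vehicle mice. The high libraries were the 5 of high striatal score. The log2 difference of 0.98 ± 0.30 (limma, adjusted p = 0.563; DESeq2, 1.22 and adjusted p = 0.00838) was 0.12 without them and 0.08 with the score as a covariate. Kcng2 (-0.89) and Kcnj6 (-0.46) did not pass either, and stood at -0.25 and -0.08 without the 5 libraries. Kcnh1 (0.28) did not pass and stood at 0.14 without them. In single arms 0 members passed with limma and edgeR. In esomeprazole mice 16 members had unadjusted p under 0.05 (5.72% of all genes) and DESeq2 called Kcnh4 (1.71) and Kcnn2 (-0.74), while in vehicle mice 0 members had unadjusted p under 0.05 (0.544%) and DESeq2 called 0.

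**Figure D4:**
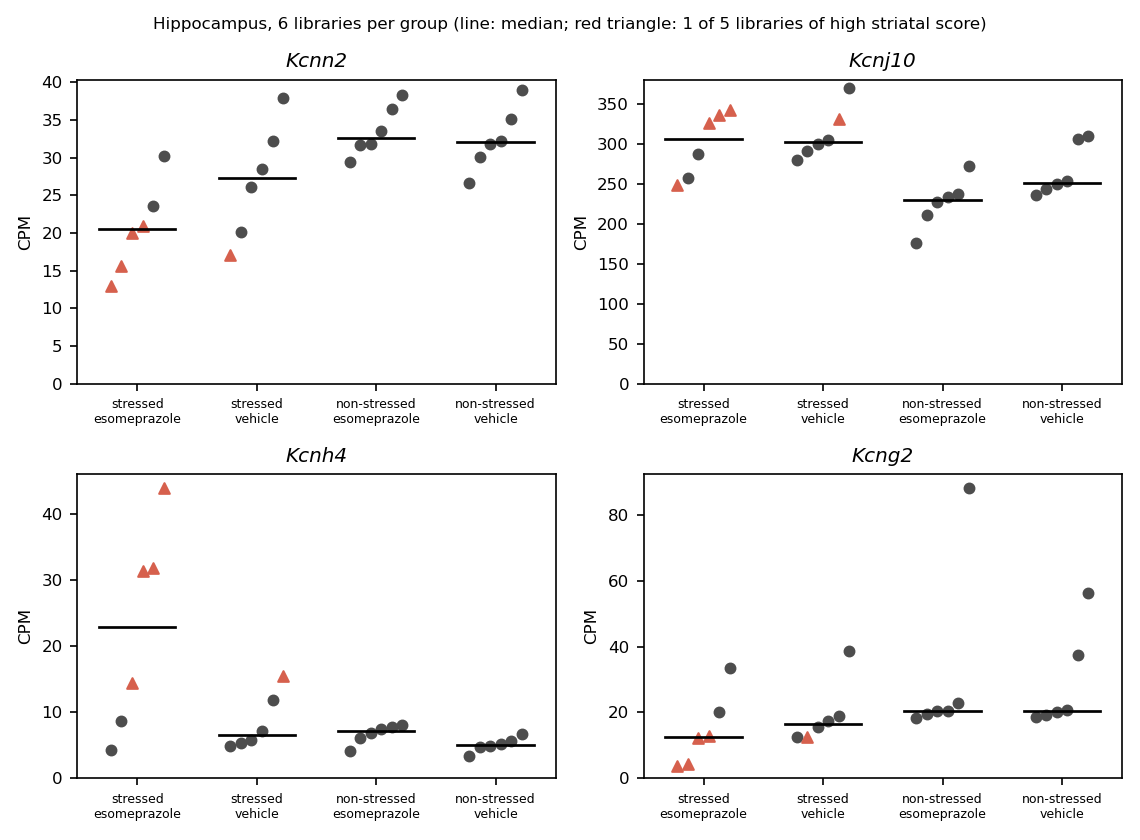
CPM of Kcnn2, Kcnj10, Kcnh4 and Kcng2 in the 6 hippocampal libraries of each group (points; line at the median), with stressed groups left of non-stressed ones and red triangles for the 5 libraries of high striatal score. The high Kcnh4 values are triangles. Kcnj10 has higher medians in the stressed groups, whose libraries overlap those of the non-stressed groups.

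In frontal cortex 0 of 80 members passed for stress averaged over the drug arms (limma, adjusted p under 0.05; 0.00% of all genes), and edgeR and DESeq2 called 0. At unadjusted p under 0.05 there were 6 members, against 3.79% of all genes. Kcnj10 had 297 to 488 CPM (median 377) in stressed esomeprazole, 269 to 458 (358) in stressed vehicle, 257 to 372 (352) in non-stressed esomeprazole and 214 to 329 CPM (263) in non-stressed vehicle mice. The groups overlapped, and the log2 difference was 0.31 ± 0.10 (adjusted p = 0.941). It was 0.21 without the 7 libraries of low bulb score and 0.17 with the bulb score as a covariate. Dropping the 7 removes most of the non-stressed vehicle group, so frontal cortex values without them rest on few libraries of that group. The median astrocyte score was -0.01 in stressed esomeprazole, 0.12 in stressed vehicle, 0.12 in non-stressed esomeprazole and -0.07 in non-stressed vehicle mice. Its part in this Kcnj10 difference was not tested. The M-current gene Kcnq3 had 4.34 to 16.8 CPM (median 8.19) in stressed esomeprazole, 3.75 to 28.8 (10.4) in stressed vehicle, 4.93 to 23.6 (14.7) in non-stressed esomeprazole and 11.9 to 46.3 CPM (22.4) in non-stressed vehicle mice. Its log2 difference of -0.85 ± 0.33 (limma, adjusted p = 0.941) was -0.57 without the 7 libraries and -0.47 with the bulb score.

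Kcnk15 had 0.12 to 6.33 CPM (median 2.83) in stressed esomeprazole, 0.03 to 8.08 (1.66) in stressed vehicle, 0.19 to 4.39 (1.65) in non-stressed esomeprazole and 0 to 2.35 CPM (0.03) in non-stressed vehicle mice. The lowest libraries were those of low bulb score. Its log2 difference by stress was 1.90 ± 0.87 (limma, adjusted p = 0.941), and was 0.75 without the 7 libraries and 0.38 with the bulb score. Kcnk5 (0.65), Kcnj6 (-0.38) and Kcnn2 (-0.26) also stood below unadjusted p of 0.05 without passing the adjustment. In vehicle mice 9 members had unadjusted p under 0.05 (6.47% of all genes), 0 of them passed, and the smallest p belonged to Kcnh1 (-0.46), Kcnj10 (0.40) and Kcnj6 (-0.56). In esomeprazole mice 0 members did (0.472%).

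**Figure D5:**
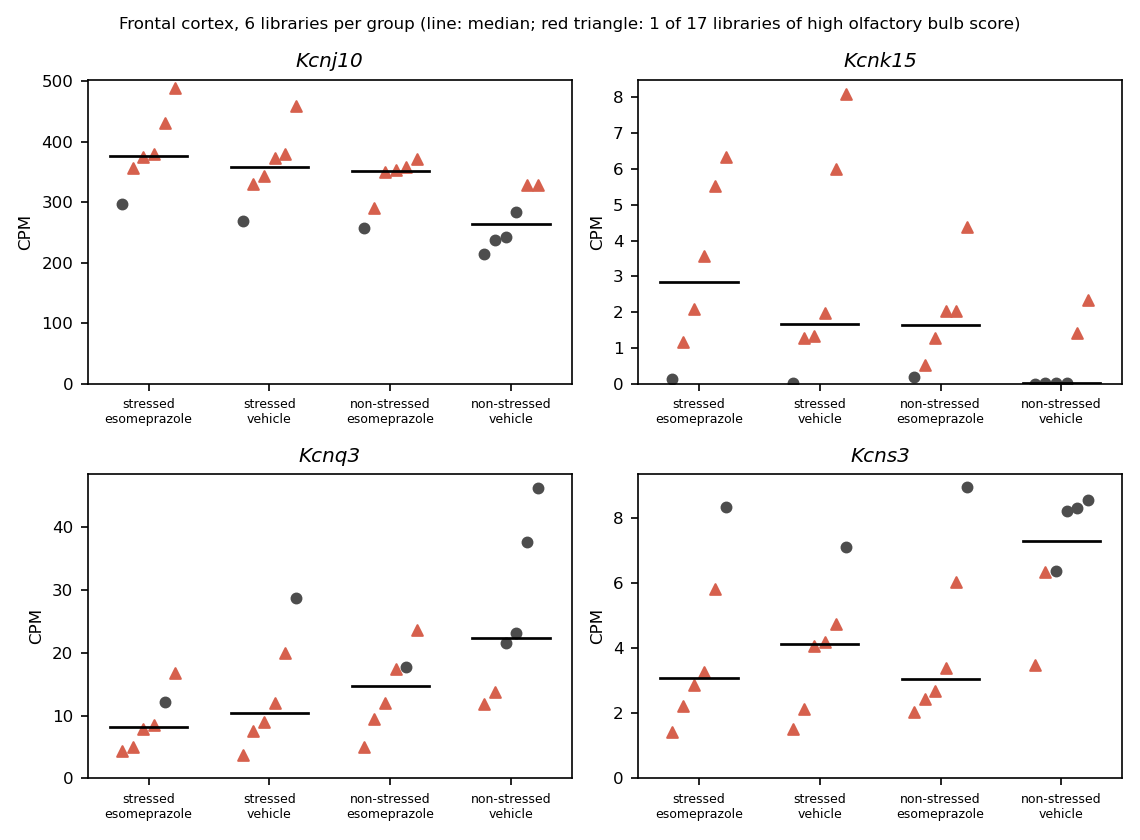
CPM of Kcnj10, Kcnk15, Kcnq3 and Kcns3 in the 6 frontal cortex libraries of each group (points; line at the median), with stressed groups left of non-stressed ones and red triangles for the 17 libraries of high olfactory bulb score. Kcnk15 is at 0.19 CPM or less, and Kcns3 at 6.37 CPM or more, in the 7 grey libraries.

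No member passed the test for esomeprazole in either tissue (limma, adjusted p under 0.05; 0.00% of all genes), and edgeR and DESeq2 called 0. In hippocampus, averaged over stress, 3 members had unadjusted p under 0.05 (0.724% of all genes): the K2P gene Kcnk6 (0.28 ± 0.10), Kcnh4 (0.77 ± 0.30) and Kcnt1 (0.48 ± 0.20) on the log2 scale. Kcnk6 was 0.21 without the 5 libraries of high striatal score, where Kcnh4 was 0.11 and Kcnt1 0.18. In stressed mice there were 7 members (1.47%), led by Kcnt1 (0.82) and the K2P gene Kcnk2 (0.44), and in non-stressed mice 0 (0.232%). In frontal cortex 0 members had unadjusted p under 0.05 on average (1.09%) and in stressed mice (0.186%), and 4 did in non-stressed mice (4.44%): Kcnk15 (2.84 ± 1.24), Kcnk2 (-0.34), Kcnh1 (-0.36) and Kcnq1 (0.62). Kcnk15 stood at -0.13 there without the 7 libraries of low bulb score. On average over stress, Kcnq3 (-0.64), Kcnj10 (0.20) and Kcnk15 (1.61) had the smallest p and did not pass.

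No member had a stress by esomeprazole interaction at adjusted p under 0.05 (limma, 0.00% of all genes; edgeR and DESeq2 called 0). At unadjusted p under 0.05 there were 0 members in hippocampus (0.378% of all genes) and 2 in frontal cortex (0.725%), Kcnh1 (0.54 ± 0.24) and the silent subunit Kcns2 (0.59 ± 0.27). For the difference of the stress effect between tissues 0 of 75 members passed in limma and edgeR (0.00% of all genes), and 6 had unadjusted p under 0.05 (3.81%). Kcnh4 led them, with a difference of 1.23 ± 0.36, hippocampus minus frontal cortex (limma, adjusted p = 0.948), and was the member DESeq2 called (1.47, adjusted p = 0.0318). For esomeprazole 0 members passed in limma, edgeR and DESeq2 (0.00%), and 3 had unadjusted p under 0.05 (0.849%): Kcnj10 (-0.35 ± 0.13), Kcnk2 (0.34) and Kcnh4 (0.76).

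Of 18 other genes of the same channels, fixed as a list of partner subunits and related channels, 15 were tested. Between tissues 3 were higher and 7 lower in hippocampus (12.0% and 13.8% of all genes). The Kv4 partner Dpp10 (-1.68), the Kv2 partner Amigo1 (-0.65), the BK partners Lrrc38 (-1.51) and Lrrc55 (-1.28) and the pacemaker channels Hcn3 (-1.15) and Hcn4 (-2.69) were lower on the log2 scale. The Kv4 partner Dpp6 (0.40), the Kv1-associated Lgi1 (0.90) and the sulfonylurea receptor Abcc8 (0.83) were higher. With the no-feature share 7 rose and 5 fell in hippocampus, and 7 rose and 6 fell in frontal cortex (83.9% and 83.7% of all genes in either direction), led by Adam22 (1.85 and 2.18) and Hcn2 (-1.48 and -1.46), hippocampus first. No gene of the list passed limma for stress, esomeprazole, their interaction or the differences between tissues.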

How the data were processed

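Stranded mRNA libraries of poly(A) RNA were read as 151-base pairs, according to the labels. The submitters' processing notes list STAR, HTSeq, DESeq2 and the build mm10, with no version and no role for each. Values deposited for genes are a signal: whole reads times 1 factor per library, shown by the deposited values themselves, 100% of which are whole within 0.02 of a read after division. Scaled values were tested with limma-trend (limma 3.58.1) on group means of log2(reads + 1), after TMM normalisation in edgeR 4.0.16. Genes passed filterByExpr with a minimum count of 10, and p was adjusted by Benjamini-Hochberg over all tested genes. CPM are shown after TMM scaling over all 48 libraries. The no-feature share entered as a continuous term for its slopes. A 95% Wilson interval on a share reaches at most 0.013 points to each side and covers counting error only.

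The members and lists were chosen with earlier results of these data known. Named genes were, between tissues, the highest member per length and up to 2 called members of largest change in each subfamily, with average log2 CPM of at least 1. For the slopes they were the 5 steepest called each way, and elsewhere every called member or the 3 of smallest p each way. Others (such as Kcnh1, Kcnh2, Kcnh7 and members set apart by marker scores) were named after their values were seen. Marker scores used lists of striatal, olfactory bulb, choroid plexus, astrocyte and hippocampal or cortical neuron genes, with 15 of 15 striatal genes listed in hippocampus and 14 of 15 olfactory bulb genes in frontal cortex. GENCODE vM21 (mm10) gave exon lengths and positions. The tests were checked on simulated data. Values of some single members that enter the counts are not reported here. Mouse numbers were not used to pair tissues or groups. There were 11 alternatives planned and 1 added after seeing the data (libraries of low marker scores). R 4.3.3, DESeq2 1.42.0, data.table (version 1.17.8), Python 3.11.15, numpy 2.4.6, pandas 2.3.3, scipy 1.17.1 and matplotlib 3.10.9 were used.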

Additional observations from a re-analysis of the deposited data

Results flagged for a closer look

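Levels of Kcnn2, Kcnj10, Kcnh4, Kcng2 and Kcnt1 were checked in hippocampus, and of Kcnj10, Kcnk15 and Kcnq3 in frontal cortex. The no-feature share and the summed member level were checked in both tissues. Of these 48 groups of 6 values, 8 held a library farther from its nearest neighbour than 0.625 of the group's range, where chance gives about 1 in 20. All 8 fell in libraries with a no-feature share under 12%. They are not independent, since some concern that share itself and the same library can appear more than once. In non-stressed esomeprazole hippocampus, library 4 had 88.0 CPM of Kcng2 (nearest 22.9), a no-feature share of 6.12% (nearest 16.9%) and a summed member level of 8497 CPM (nearest 5889). In stressed vehicle hippocampus, library 3 had 38.7 CPM of Kcng2 (nearest 19.0) and a summed member level of 7209 CPM (nearest 5681). In non-stressed vehicle frontal cortex, library 4 had a no-feature share of 4.50% (nearest 14.4%) and a summed member level of 7984 CPM (nearest 6512). In stressed vehicle frontal cortex, library 3 had a summed member level of 6935 CPM (nearest 6157).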

How the results depend on the processing

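The tissue contrast called 38 to 41 of the 75 members under edgeR, DESeq2, median-of-ratios scaling, no filter, a pseudocount of 5, the deposited scaling and without the rarer marker class (5 hippocampal libraries of high striatal and 7 frontal cortex libraries of low bulb score). It called 48 with the no-feature share as covariate and 48 without libraries under 12%, in each case 17 higher and 31 lower. For stress and esomeprazole, DESeq2 alone called members: 3 for stress in hippocampus, 2 in its esomeprazole arm and 1 for the difference of the stress effect between tissues, and the cause was not tested. Without libraries under 12% the slope calls fell to 22 in hippocampus and 30 in frontal cortex, in fits with fewer libraries. The deposited scaling moved the median log2 esomeprazole effect of all hippocampal genes to 0.18, against -0.01.

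Among 200 slope values of named members 0 changed sign, among 341 tissue values 7 did, and among 1044 stress and esomeprazole values 22 did, none of them called by limma. Tissue values that changed sign were Kcnd2 at -0.041 and Kcnn1 at 0.028 without libraries under 12%, Kcnn1 at 0.0010 with that share as covariate, Kcnd2 at -0.11, Kcnn1 at 0.18 and Kcnmb4os2 at 0.083 without the rarer class, and Kcne1l at 0.59 in libraries of low scores. With the neighbouring-tissue score as a covariate, hippocampal Kcnj6 had 0.039 for stress, 0.058 for stress in esomeprazole mice, 0.14 for esomeprazole in stressed mice and 0.037 for the interaction. Kcnh4 had -0.018 for stress in esomeprazole mice, and Kcnn2 had 0.046 for esomeprazole and 0.016 for esomeprazole in stressed mice. In frontal cortex that covariate gave Kcnab3 -0.013 for esomeprazole, Kcnk15 -0.14 and Kcna5 -0.10 for esomeprazole in non-stressed mice, and Kcnk15 0.43 and Kcnh8 0.064 for the interaction. Without the rarer class Kcnh4 had -0.18 for stress in esomeprazole mice and -0.19 for esomeprazole in stressed mice, where Kcnk2 had -0.00326 and Kcnj6 0.021. In frontal cortex Kcnh7 then had 0.0083 for esomeprazole, and Kcnk15 had -0.13 for esomeprazole in non-stressed mice and 0.31 for the interaction. The deposited scaling gave Kcnj10 0.037 and Kcnn2 0.019 for esomeprazole in hippocampus, and Kcna6 0.00547 in non-stressed mice. The cause of these changes was not tested.

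With the replicate number as a block, 38 members were called between tissues, 57 slopes in hippocampus and 53 in frontal cortex, and 0 members for stress, esomeprazole, their interaction or the differences. Deviations from group means, over all filtered genes listed in both tissues and not the members alone, were correlated between tissues for 24 mouse numbers. The correlations were -0.83 to 0.91 (median 0.42), 15 of them over 0.1. The best correlation was with the own number for 8 of them. Most genes moved with the no-feature share, which enters these deviations, so the correlations cannot show whether a number marks the same mouse. The labels do not state that it does, so the numbers were not taken as pairs.

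The striatal score and the stress groups of hippocampus cannot be told apart fully, since all 5 libraries of high score were from stressed mice. Counting depth was 25.3 M gene reads or more per library, and how depth limits members of low level was not tested.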
